A study of Mus musculus with 12 samples.

Results

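The genes described here make up the type I interferon response of mouse cells. They are 40 genes chosen by name from knowledge of the pathway: its receptor chains and kinases, its transcription factors, and the antiviral and ubiquitin-related genes that interferon switches on. Earlier results of these data were known when they were chosen, so the shares of members set beside all genes are descriptions. Of the 40, 39 had a row among the 22880 features of the raw count table, 33 of these passed the filter on low counts and entered the test with 11291 genes in all, and Mx2 is not analysed here. The 6 members that were in the table but too low to test were Ifit3, Mx1, Oas2, Usp18, Ifi44 and Zbp1.

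RNA sequencing was done on 12 libraries of 4T1, a mammary tumour line from a BALB/c mouse that spreads to the lung, in 4 groups of 3. The mock cells carried the plasmid pcDNA3.1, the MYBup cells carried pcDNA3-mMyb, which overexpresses the Myb oncogene, the wt cells were not transfected, and the lung3 cells were not transfected but had been passaged 3 times through the lung in vivo. The labels grade lung metastatic activity as normal for mock and wt, low for MYBup and high for lung3. The study asked which genes change in opposite directions when Myb overexpression lowers and in vivo selection raises lung seeding. The labels name the replicates by number and do not say whether they came from separate cultures, so the p-values rest on the spread of these 12 libraries, part of which may be technical. Nor do they say whether the plasmid cells or lung3 cells were pools or clones.

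Type I interferons are secreted proteins that bind a receptor of the chains IFNAR1 and IFNAR2. The kinases JAK1 and TYK2, bound to the receptor, then phosphorylate transcription factors, among them STAT2, which joins IRF9 in a complex that binds the interferon-stimulated response element (ISRE) in front of target genes. Many targets block viruses (the Ifit, Oas and Mx families, Rsad2), others sense viral RNA (Ddx58, Ifih1, Dhx58) or carry the signal themselves (Irf7, Stat2, Irf9), so that the response feeds itself.

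Library totals ran from 8912989 counts in lung3 replicate 2 to 24745660 in wt replicate 2. Myb stood at 39.3 to 42.9 CPM (read counts scaled to a library of 1000000) in MYBup, 4.49 to 6.80 in mock, 4.27 to 5.75 in wt and 2.22 to 3.13 in lung3, with no overlap between MYBup and any other group. The 6 markers listed for the labelled cell type (Krt8, Krt18, Epcam, Cdh1, Krt14 and Krt5) summed to 1901 to 2680 CPM in every library, with Krt5 at or near 0. Libraries that stood apart in the interferon genes were replicate 3 of lung3 and replicate 3 of wt: the mean log2 CPM of the 33 tested members was 3.24, 3.09 and 3.89 in lung3 replicates 1 to 3 and 2.84, 2.83 and 3.48 in wt, against 2.88, 2.83 and 2.65 in mock and 2.99, 2.96 and 3.00 in MYBup. Lung3 replicate 3 was the highest of all 12 libraries in 19 of the 33 members (57.6%) and in 7.998% of all tested genes. Wt replicate 3 was the highest in 4 members (12.1%) and in 3.73% of all tested genes.

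**Figure D1:**
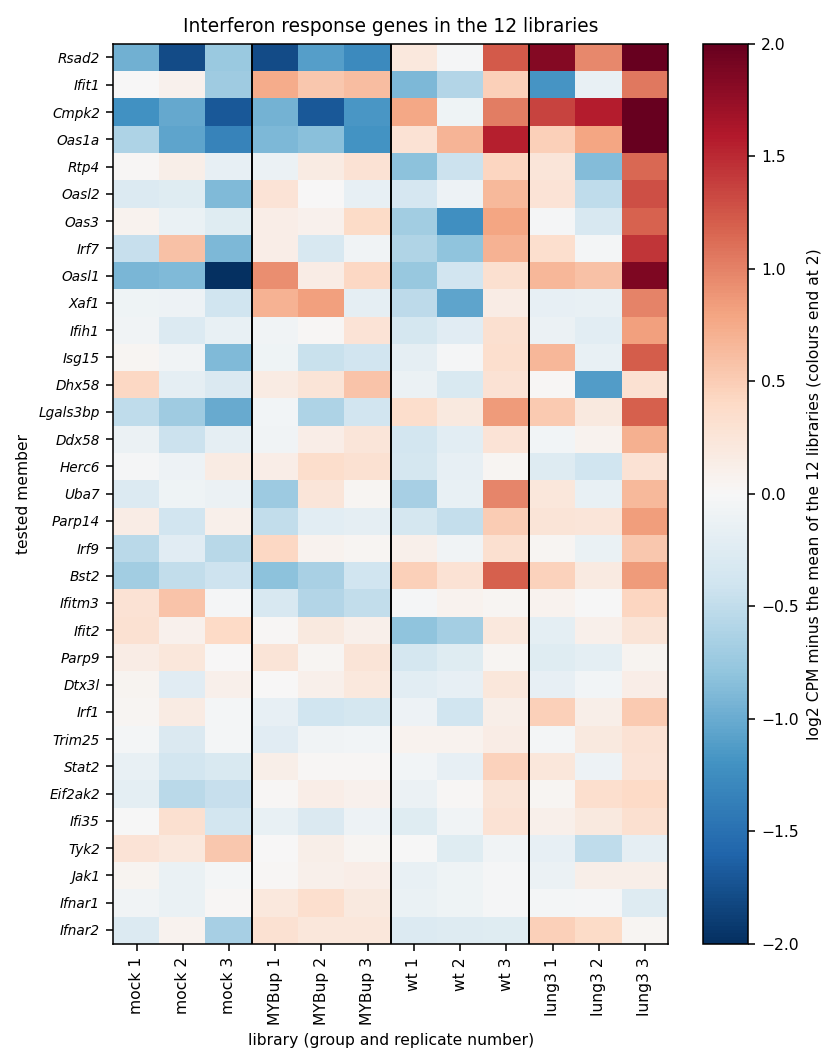
Heat map of the 33 tested members (rows, ordered by how far lung3 replicate 3 lay above the other lung3 libraries) in the 12 libraries (columns, by group and replicate number). Colour is log2 CPM minus the mean of the 12 libraries for that gene. The columns of wt replicate 3 and lung3 replicate 3 are redder than their neighbours in most rows, and lung3 replicate 3 is the highest library in 19 rows.

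Expression differed widely among the members. Per kilobase of exon, Ifitm3, a membrane protein that stops viruses from fusing, stood highest at a mean of 122 CPM per kb over the 12 libraries. It was followed by the kinase Jak1 at 28.2, the ubiquitin ligase Trim25 at 18.1, the virus tether Bst2 at 12.8, the receptor chain Ifnar1 at 10.6 and the transcription factor Irf1 at 10.04. Other induced members spanned a wide range, with the kinase Eif2ak2 at 8.99, Isg15 at 8.76, Ifit2 at 5.503, Oasl1 at 3.71, Ifit1 at 0.759, Oas1a at 0.758, Irf7 at 0.286 and Rsad2 at 0.161 CPM per kb. Mx1 had 1 count in MYBup replicate 1, 1 in lung3 replicate 3 and 0 in the other 10 libraries.

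The interferons themselves were at or near 0. Ifnb1 had 1 count, in wt replicate 3, and the other 7 listed ligands (Ifna1, Ifna2, Ifna4, Ifna5, Ifnk, Ifne and Ifnz) had 0 counts in all 12 libraries. A count of 0 allows up to 3 counts, which is 0.124 CPM in wt replicate 2 and 0.346 CPM in lung3 replicate 2. These limits and the count intervals given below cover counting error only.

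Promoter sequence was available for 31 members in RefSeq (GRCm38.p6). The core of the ISRE, spelled GAAANNGAAA and searched on both strands in the 250 bases before each gene's start, was present in 8 of these 31 members (25.8%) and in 3.46% of 27025 genes. The core of the gamma-activated site, an element of interferon-responsive promoters spelled TTCNNNGAA, was present in 6 of 31 members (19.4%) and in 8.13% of genes. Overlapping ISRE matches were merged in the capitals below. A match is a description of the letters, not of binding. The 4 windows are those of members described in full below, on account of their call or their spread in lung3, that hold an ISRE core. Each runs 5′ to 3′ on the strand of the gene, and capitals mark the ISRE core or its reverse complement. The Ifit1 window lies at chr19:34640755-34640843 on the plus strand, 134 to 46 bases before the start. The Oas1a window lies at chr5:120907526-120907575, the Oas3 window at chr5:120777695-120777764 and the Rsad2 window at chr12:26456533-26456602, all 3 on the minus strand.
Ifit1: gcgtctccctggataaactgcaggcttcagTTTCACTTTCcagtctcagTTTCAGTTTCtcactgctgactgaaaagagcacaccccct
Oas1a: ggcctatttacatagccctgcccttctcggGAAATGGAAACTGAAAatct
Oas3: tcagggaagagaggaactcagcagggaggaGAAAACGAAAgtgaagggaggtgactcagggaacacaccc
Rsad2: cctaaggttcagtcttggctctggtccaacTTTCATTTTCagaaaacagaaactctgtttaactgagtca
Ifit1 and Oas1a each hold 2 cores, separate in Ifit1 and overlapping in Oas1a, while Oas3 and Rsad2 each hold 1.

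In lung3 cells against wt, interferon genes lay mostly higher. The interferon-induced genes Rsad2, Cmpk2 and Oasl1, the transcription factor Irf1 and the receptor chain Ifnar2 rose, and no member fell. These 5 of 33 members (15.2%) compare with 2.91% of all tested genes called higher, 2.44% called lower and 5.36% called in either direction, at a Benjamini-Hochberg adjusted p under 0.05 in edgeR's quasi-likelihood test over all 12 libraries. The log2 fold change was above 0 in 29 of the 33 members and 50.2% of all tested genes, with a median of 0.320 for the members and 0.00100 for all genes.

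Rsad2 encodes viperin, an enzyme that makes a chain-ending nucleotide against viral polymerases, and lies at chr12:26442746-26456452. It was at 1.38, 0.693 and 4.44 CPM in lung3 replicates 1 to 3 and at 0.364, 0.289 and 0.863 CPM in wt. Lung3 replicate 3 stood far above the rest, and lung3 replicate 2 lay below wt replicate 3, so the groups overlapped. The log2 fold change was 2.20 ± 0.58 (SE; adjusted p = 0.0424). On summed counts, 89 in lung3 against 33 in wt, the ratio was 4.91 with a 95% counting interval of 3.26 to 7.56.

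Cmpk2, a mitochondrial nucleotide kinase, is the neighbour of Rsad2 at chr12:26469204-26479837. Its levels were 0.873, 1.04 and 3.33 CPM in lung3 and 0.545, 0.248 and 0.671 CPM in wt. All 3 lung3 libraries were above all 3 wt libraries, with replicate 3 again the highest of lung3. Its log2 fold change was 1.91 ± 0.51 (SE; adjusted p = 0.0464), from 69 against 32 counts.

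Oasl1, which binds the Irf7 messenger and limits its translation, lies at chr5:114923240-114937915. It was at 12.2, 11.7 and 28.4 CPM in lung3 and at 4.50, 5.91 and 9.64 CPM in wt. No lung3 library was as low as any wt library. The log2 fold change was 1.41 ± 0.37 (SE; adjusted p = 0.0427).

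Irf1, a transcription factor that acts on many interferon targets, lies at chr11:53770014-53778374. It was at 54.5, 42.5 and 56.3 CPM in lung3 and 36.6, 29.7 and 42.5 CPM in wt. The lowest lung3 library, replicate 2, and the highest wt library, replicate 3, were level to 3 digits. Its log2 fold change was 0.50 ± 0.13 (SE; adjusted p = 0.0444).

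Ifnar2, the receptor chain that binds interferon most tightly, lies at chr16:91372783-91405589. It was at 28.1, 26.1 and 20.7 CPM in lung3 and at 16.6, 16.7 and 16.9 CPM in wt. Here lung3 replicate 3 was the lowest lung3 library, unlike in the other called genes, and the wt libraries lay close together. The change was 0.57 ± 0.15 (SE; adjusted p = 0.0455). An annotated transcript on the same strand (Gm21970) shares 315 exon bases with Ifnar2, and its reads cannot be told apart from those of Ifnar2 without knowing how overlaps were counted.

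Outside the 5 called genes, 28 members did not pass, with log2 fold changes from -0.17 for Bst2 to 0.95 ± 0.51 (SE) for Irf7. Isg15, a ubiquitin-like protein secreted and joined to other proteins, had the lowest of their p-values, with 9.82, 5.54 and 14.4 CPM in lung3 and 5.45, 6.03 and 7.77 CPM in wt (log2 fold change 0.66, adjusted p = 0.201). With no overlap between the groups as the criterion, 4 of 33 members were higher (Irf1, Oasl1, Cmpk2 and Ifnar2) and 0 were lower. Over all genes 14% were higher and 13.4% lower. By that measure the members were near the background on the higher side and below it on the lower side, a difference that was not tested.

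The 3 other receptor and kinase members did not pass the test. Ifnar1 was at 61.2, 61.5 and 52.1 CPM in lung3 and 57.3, 58.9 and 61.9 CPM in wt (log2 fold change -0.03 ± 0.08 (SE)). Jak1 was at 188, 221 and 221 CPM in lung3 and 182, 192 and 200 CPM in wt (0.13 ± 0.08 (SE)). Tyk2 was at 14.0, 10.97 and 13.9 CPM in lung3 and 15.6, 13.3 and 14.96 CPM in wt (-0.16 ± 0.12 (SE)). In each of the 3 genes the groups overlapped.

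The libraries of lung3 and wt with the same number deviated together from their group means, so a fit of these 6 libraries with the replicate number as a block was also made. In it 9 of 33 members were higher and 0 lower, where 8.67% of 11085 genes were called higher, 9.24% lower and 17.9% in either direction. The 9 were the 5 above and Parp14 (log2 fold change 0.53, adjusted p = 0.00365), a mono-ADP-ribosyltransferase, Ddx58 (0.35, 0.0111), the RNA sensor RIG-I, Isg15 (0.61, 0.0193) and Ifit2 (0.45, 0.0193), which binds viral RNA. Within numbers, lung3 exceeded wt by a median of 0.290 in log2 CPM for number 1 (28 of 33 members), 0.118 for number 2 (23 members) and 0.326 for number 3 (27 members). For all tested genes the 3 medians lay between -0.0116 and 0.00694. In 18 of 33 members (54.5%) lung3 was higher within all 3 numbers, and in 2 it was lower within all 3, against 24.3% and 25.5% of all genes.

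The unblocked calls sat close to the threshold, and none of them held in every alternative. Irf1 and Oasl1 each lost their call in 9 of 20 alternatives, Ifnar2 in 10 of 20, Cmpk2 in 12 of 20 and Rsad2 in 8 of 19. Without mock replicate 1, MYBup replicate 2, MYBup replicate 3, wt replicate 1 or wt replicate 2, 0 members passed in edgeR's test, while 5 or 6 were higher at an unadjusted p under 0.05. The calls over all genes fell in the same fits, to between 2.08% and 4.34% in either direction, and between 7.51% and 10.1% of all genes were higher at an unadjusted p under 0.05. One member passed without lung3 replicate 3, with 3 higher at an unadjusted p under 0.05 (9.17% of all genes). Without lung3 replicate 2, 2 passed, and 3 passed without MYBup replicate 1 or lung3 replicate 1. Of all genes, 3.94%, 2.58%, 5.42% and 3.69% were called in either direction in these fits, in the order given. In edgeR's test without wt replicate 3, 19 members were higher at an unadjusted p under 0.05, against 10.7% of all genes. The same count was 11 without lung3 replicate 1 (9.49% of all genes) and 10 without lung3 replicate 2 (8.82%). With all libraries, DESeq2 called 4 members higher and 0 lower and limma voom called 3 and 0. The median log2 fold change was 0.0148 without lung3 replicate 3, 0.202 without wt replicate 1 and 0.581 without wt replicate 3. Without replicate 3 of both groups, an alternative chosen after seeing the data, 1 member passed and the median was 0.204. Without lung3 replicate 3 the log2 fold change was 1.13 for Rsad2 (adjusted p = 0.275), 0.96 for Cmpk2 (0.300) and 0.84 for Oasl1 (0.199).

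**Figure D2:**
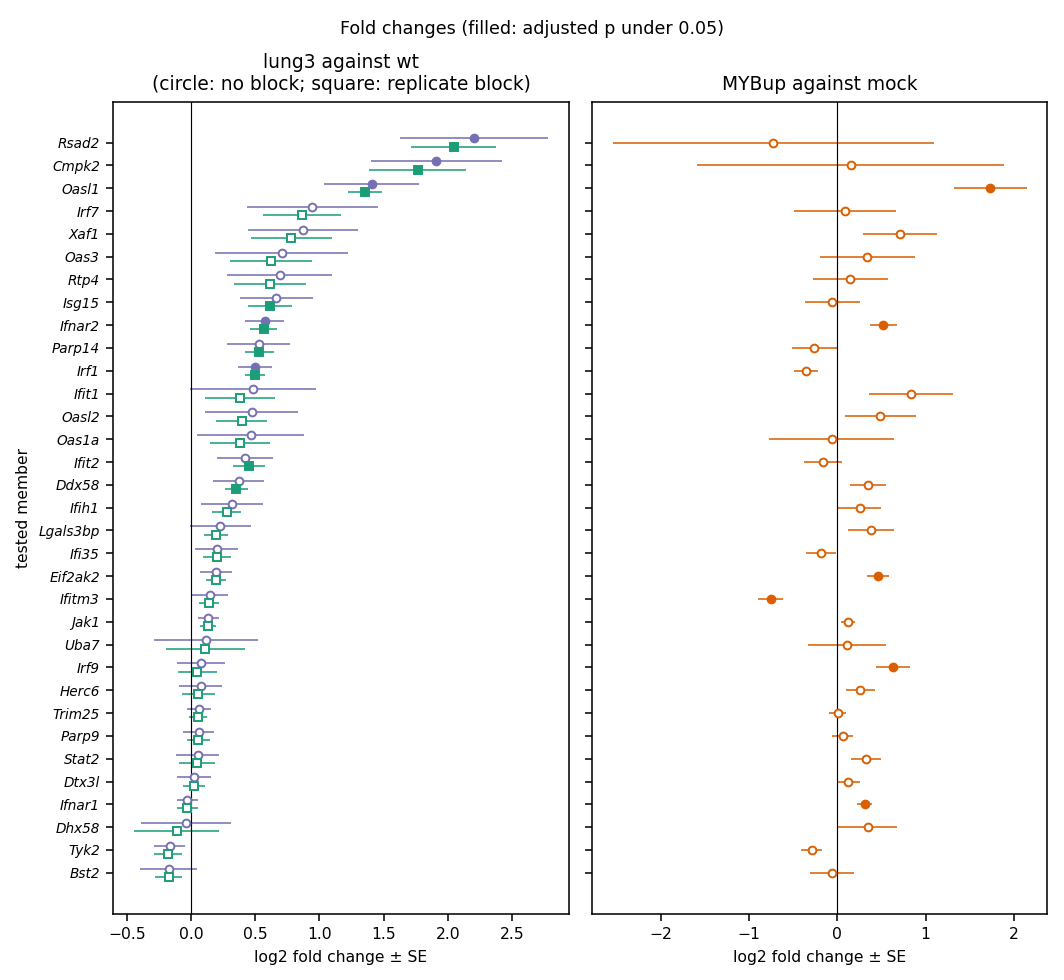
Log2 fold change ± SE of the 33 tested members (rows), for lung3 against wt on the left (circles from the fit of 12 libraries without a block, squares from the 6 libraries with the replicate block) and for MYBup against mock on the right; filled symbols have an adjusted p under 0.05. On the left 29 circles lie above 0 and 5 are filled, and with the block 9 squares are filled.

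The spread between replicates was wide in lung3 and in wt, and replicate 3 was the highest library of most members in each. In lung3, replicate 2, the library with the lowest total, was the lowest in 19 of 33 members (57.6%), against 37.8% of all genes. The range of log2 CPM over the 3 lung3 libraries had a median of 0.701 for the 33 members and 0.2496 for all 11291 genes, and it exceeded 1, a doubling between the lowest and highest library, in 14 members (42.4%) and 4.79% of all genes. In wt the medians were 0.644 and 0.196, with 11 members (33.3%) and 3.11% of all genes above 1. In mock the medians were 0.333 and 0.302, and in MYBup 0.305 and 0.214, so in the plasmid cells the members lay nearer to the rest of the genome.

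Replicate 3 was above the mean of replicates 1 and 2 in 33 of 33 members in wt and in 31 of 33 in lung3, against 12 of 33 in mock and 18 of 33 in MYBup. The median difference in log2 CPM was 0.568 in wt and 0.601 in lung3, and -0.180 in mock and 0.0284 in MYBup. Over all tested genes the median difference lay between -0.00503 and 0.0118 in the 4 groups. These are descriptions over genes of the same libraries, so no test is given.

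The spread was also seen in well-expressed members. Of the members, 22 had a mean of at least 5 CPM over the 12 libraries. Among these the median range in lung3 was 0.435, against 0.222 for 9597 genes at that level, and replicate 3 was the highest lung3 library in 19 of 22 (86.4%) against 28.8%. In wt the median range was 0.467 against 0.174, and replicate 3 was the highest in 20 of 22 (90.9%) against 35.3%.

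The members with the widest lung3 range were Rsad2 (2.49 in log2 CPM), Ifit1 (2.24), Rtp4 (2.01), Oasl2 (1.80), Cmpk2 (1.79), Oas1a (1.68), Oas3 (1.49) and Irf7 (1.47). Ifit1, which binds viral RNA that lacks the host's cap methylation, was at 0.728, 1.62 and 3.88 CPM in lung3 replicates 1 to 3 and 0.909, 1.16 and 2.54 CPM in wt. Oas1a, a synthetase of the messenger that activates RNase L, was at 1.46, 1.85 and 4.92 CPM in lung3 and 1.27, 1.69 and 3.21 CPM in wt. Oas3, of the same family, was at 1.02, 0.808 and 2.495 CPM in lung3 and 0.591, 0.372 and 1.87 CPM in wt. In each of these 3 genes replicate 3 exceeded the other libraries of its own group in both groups, and the groups overlapped.

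Oasl2, an OAS-like protein with ubiquitin-like domains, was at 4.66, 2.66 and 9.56 CPM in lung3 and 3.00, 3.55 and 6.09 CPM in wt. Rtp4, a chaperone of receptors, was at 2.11, 0.924 and 4.09 CPM in lung3 and 0.954, 1.28 and 2.45 CPM in wt. Irf7, the transcription factor that amplifies interferon production, was at 1.24, 0.924 and 2.77 CPM in lung3 and 0.591, 0.496 and 1.63 CPM in wt. Their replicate 3 libraries were again the highest of each group. The 6 genes of this list other than Rsad2 and Cmpk2 did not pass the test between lung3 and wt, with log2 fold changes of 0.46 to 0.95 and SEs of 0.36 to 0.52.

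Below the filter, Ifi44, Zbp1, Usp18 and Ifit3 also had replicate 3 as the highest library in lung3 and in wt, on few reads. Ifi44, an interferon-induced protein of the cytoplasm, was at 0.218, 0 and 2.495 CPM in lung3 and 0.0909, 0.0413 and 0.959 CPM in wt, which is 39 against 23 counts. Zbp1, a sensor of Z-form nucleic acid, was at 0.291, 0.346 and 1.39 CPM in lung3 and 0, 0 and 0.336 CPM in wt, which is 27 against 7 counts. Lung3 exceeded wt 3.09 times in Ifi44 (95% counting interval 1.80 to 5.42) and 7.02 times in Zbp1 (2.98 to 19.1), intervals that cover counting error and not the spread between libraries. Replicate 3 held most of the counts of Ifi44 and of Zbp1 in both groups. Usp18 had 13 counts in lung3 and 17 in wt (ratio 1.39, 0.622 to 3.04), Ifit3 had 16 and 20 (1.46, 0.706 to 2.96) and Oas2 had 0 and 5, and for these 3 a difference was not detectable at this depth.

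The receptor chains were the exceptions. Ifnar2 and Ifnar1 were lower in lung3 replicate 3 than in the mean of the other lung3 libraries, by 0.39 and 0.24 on the log2 scale, and lay slightly above that mean in wt. Across the 33 members, the excess of replicate 3 in lung3 was larger where it was larger in wt (Pearson's r = 0.721, Spearman's rho = 0.756). Over all 11291 genes the same values were 0.309 and 0.168. This is a description across genes, which are not independent replicates and share the 6 libraries.

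**Figure D3:**
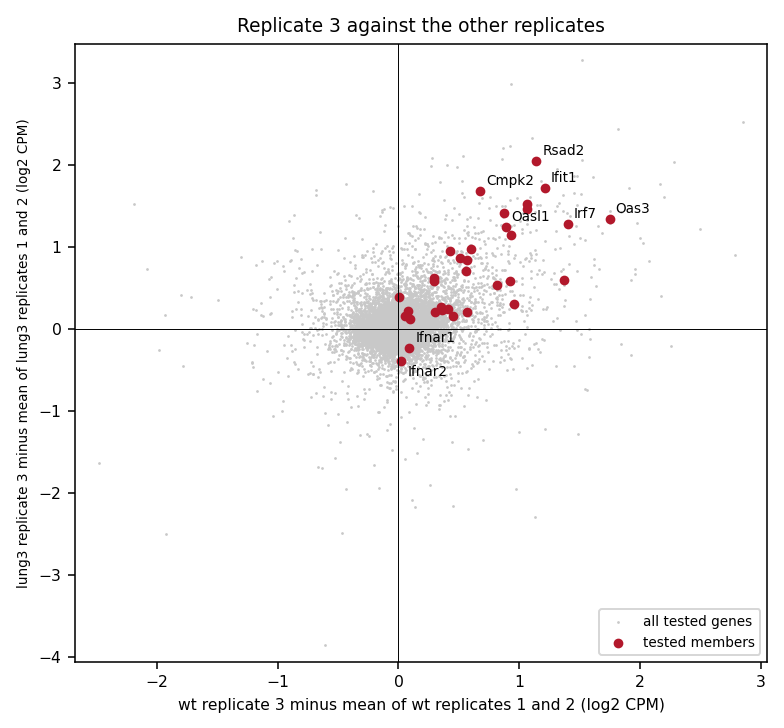
Replicate 3 minus the mean of replicates 1 and 2 in log2 CPM, for wt (horizontal) and lung3 (vertical). Grey points are all 11291 tested genes and red points the 33 tested members. All red points lie to the right of 0, and 31 of 33 lie above 0.

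Members with an ISRE core in their promoter had the larger median excess of replicate 3, though the 2 sets overlapped. The median was 1.07 in wt and 1.35 in lung3 for the 7 tested members with a core (Rsad2, Oas3, Ifit1, Isg15, Stat2, Bst2 and Oas1a) and 0.430 and 0.486 for the 22 with a window and no core. In lung3 the 7 ran from 0.206 (Stat2) to 2.04 (Rsad2) and the 22 from -0.388 (Ifnar2) to 1.68 (Cmpk2). The sets were not matched for expression. Ifit1, Oas1a, Oas3 and Rsad2, with the largest lung3 excess of the 7, averaged 0.698 to 2.02 CPM over the 12 libraries. Isg15, Stat2 and Bst2, at 6.62 to 11.5 CPM, had lung3 excesses of 0.954, 0.206 and 0.538. Cmpk2, without a core, averaged 0.580 CPM. The 22 include the receptor chains and the kinases Jak1 and Tyk2. Among genes outside the list the difference was small. The 265 with a core had medians of 0.0463 in wt, with 58.9% above 0, and 0.0331 in lung3, with 61.5% above 0, against -0.00447 (49.0%) and 0.00565 (51.3%) for the 8578 without one. In the plasmid cells the 7 members with a core had medians of -0.215 in mock and -0.0215 in MYBup, and the 22 without had -0.115 and -0.00404.

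Other interferon-stimulated genes, not members, were also high in replicate 3 of wt and lung3. Of 66 listed, 52 were tested, and replicate 3 was above the mean of replicates 1 and 2 in 46 of 52 in wt (median 0.391) and 45 of 52 in lung3 (median 0.482), against 9 of 52 in mock and 24 of 52 in MYBup. A list of 6 NF-kB and cytokine genes was set beside them. In lung3 the direction was opposite for its 4 cytokine genes, Ccl2, Cxcl1, Cxcl5 and Il1a, with differences of -2.28, -1.28, -2.17 and -1.95, while the NF-kB inhibitors Nfkbia and Tnfaip3 were at -0.373 and 0.0429. Ccl2, a monocyte chemokine, was at 46.5 and 37.3 CPM in lung3 replicates 1 and 2 and at 8.46 CPM in replicate 3, and the 6 genes had a median difference of -1.61 in lung3 and -0.119 in wt. In mock that median was -1.57, where mock replicate 3 was also low in interferon genes.

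Markers of other cells were measured beside these values. Their part in the results was not tested. The 11 leukocyte markers summed to 2.41 to 4.89 CPM in wt and 5.24 to 14.3 CPM in lung3, with replicate 3 the highest of each group, and to 0.784 to 2.14 CPM in mock and 1.07 to 1.63 CPM in MYBup. In lung3 and wt most of this was Cd74, the invariant chain of MHC class II, at 4.95, 5.08 and 13.5 CPM in lung3 and 2.00, 2.15 and 4.36 CPM in wt. The other 10 markers summed to 0.372 to 0.527 CPM in wt and 0.291 to 1.15 CPM in lung3, with replicate 2 the highest of lung3. Their sums were 0.588 to 1.38 CPM in mock and 0.489 to 1.33 CPM in MYBup. The defining T cell and macrophage markers Cd3e and Adgre1, the alveolar macrophage marker Siglecf, 2 of the 4 plasmacytoid dendritic cell markers, Siglech and Ccr9, and the alveolar type II cell markers Sftpc, Sftpa1 and Sftpb were at 0 in all 12 libraries. Tcf4, which many cell types express, held nearly all of the 102 to 198 CPM of the plasmacytoid list. The 6 lung epithelial markers summed to 0.289 to 1.05 CPM in wt and 0.346 to 0.970 CPM in lung3, with replicate 3 the highest of each. The 4 fibroblast markers summed to 21.7 to 30.2 CPM in wt, 15.9 to 21.6 CPM in lung3 and 36.9 to 48.95 CPM in the plasmid cells, and the 4 endothelial markers to at most 0.496 CPM. In such bulk samples a change in the share of cells that express a gene and a change in its RNA per cell cannot be told apart.

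In MYBup cells against mock, the interferon genes split. Oasl1, the transcription factor Irf9, the kinase Eif2ak2 and both receptor chains rose, and Ifitm3 fell. These 5 higher and 1 lower of 33 members (18.2%) compare with 14.3% of all tested genes called higher, 12.6% called lower and 26.9% in either direction, so the members' share lay below that of all genes in these libraries, a difference that was not tested. The members' median log2 fold change was 0.148, against 0.00146 for all genes, with 23 of 33 above 0.

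Oasl1 was at 14.7, 8.58 and 10.3 CPM in MYBup and 4.03, 4.14 and 1.83 CPM in mock, which gives 1.73 ± 0.41 (SE) in log2 fold change (adjusted p = 0.00755). Every MYBup library was more than double the highest mock library. Ifitm3, at chr7:141009586-141010770, was at 64.5, 53.7 and 57.4 CPM in MYBup and 98.1, 119 and 79.1 CPM in mock, which gives -0.76 ± 0.14 (SE) in log2 fold change (adjusted p = 0.00166). Mock replicate 3 was the lowest of the mock libraries in both genes, and the groups did not overlap in either.

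Irf9, the DNA-binding partner of STAT2, was at 7.82, 6.14 and 6.03 CPM in MYBup and 3.98, 4.99 and 3.92 CPM in mock (log2 fold change 0.63 ± 0.20 (SE), adjusted p = 0.0299). Eif2ak2, the kinase PKR that stops translation on double-stranded RNA, was at 45.7, 49.6 and 48.0 CPM in MYBup and 39.6, 31.2 and 32.9 CPM in mock (0.46 ± 0.12 (SE), adjusted p = 0.0140). In both genes all 3 MYBup libraries exceeded all 3 mock libraries. Irf9 shares 123 exon bases with Rnf31 on the same strand and Eif2ak2 shares 174 with Gm26637 on the opposite strand.

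Both receptor chains were higher. Ifnar1, at chr16:91485238-91507441, was at 72.7, 79.3 and 71.5 CPM in MYBup and 59.4, 57.0 and 63.9 CPM in mock (log2 fold change 0.31 ± 0.08 (SE), adjusted p = 0.0153). Ifnar2 was at 24.7, 23.6 and 23.4 CPM in MYBup and 16.6, 21.0 and 12.6 CPM in mock (0.52 ± 0.15 (SE), adjusted p = 0.0240). The mock libraries of Ifnar2 spread far more widely than those of MYBup. The kinases did not pass, with Jak1 at 206, 217 and 222 CPM in MYBup and 211, 185 and 197 CPM in mock, and Tyk2 at 15.9, 17.0 and 16.2 CPM against 19.0, 18.2 and 22.9 CPM (log2 fold change -0.29 ± 0.12 (SE), adjusted p = 0.0827).

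The antiviral genes that separated lung3 replicate 3 did not behave alike here. Rsad2 had 2 counts in MYBup and 4 in mock, and Cmpk2 had 2 in each, too few for any statement on a difference. Ifit1 was at 3.10, 2.66 and 2.83 CPM in MYBup and 1.80, 1.93 and 1.05 CPM in mock, with no overlap, and its change of 0.83 ± 0.48 (SE) in log2 did not pass (adjusted p = 0.216). Oasl2 and Oas3 were also higher in every MYBup library than in every mock library. Their log2 fold changes of 0.49 and 0.34 did not pass edgeR's test (adjusted p = 0.393 and 0.675). Rtp4, Oas1a and Irf7 overlapped between the groups, with log2 fold changes of 0.15, -0.06 and 0.09. Ifi44, below the filter, had 18 counts in MYBup against 3 in mock, and MYBup exceeded mock 6.79 times (95% counting interval 1.98 to 36.0). In all, 10 of 33 members were higher in every MYBup library than in every mock library and 3 were lower, where 21.8% and 18.8% of all genes were.

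The calls of Oasl1 and Ifitm3 held in each of the 20 alternatives, with adjusted p of up to 0.0272 and 0.0215. The count of members called higher was 2 without mock replicate 1 or MYBup replicate 2 and 3 without mock replicate 3 or MYBup replicate 1. The calls over all genes fell in the same fits, to 19%, 19.1%, 24.6% and 22.8% in either direction. Ifnar2 lost its call when any mock library other than replicate 2, or any MYBup library, was left out, Irf9 without mock replicate 1 or 3 or MYBup replicate 1 or 2, and Ifnar1 without mock replicate 1 or MYBup replicate 2, with adjusted p of up to 0.0705 for Ifnar2, 0.106 for Irf9 and 0.125 for Ifnar1 over the alternatives. With the 6 libraries and the replicate block 1 member was higher and 1 lower of 30 tested, where 7.09% of all genes were higher, 6.21% lower and 13.3% in either direction. The count of members called lower was 2 without mock replicate 2, wt replicate 2, wt replicate 3 or lung3 replicate 2. In those fits 29.7%, 25%, 26.8% and 27.2% of all genes were called in either direction.

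**Figure D4:**
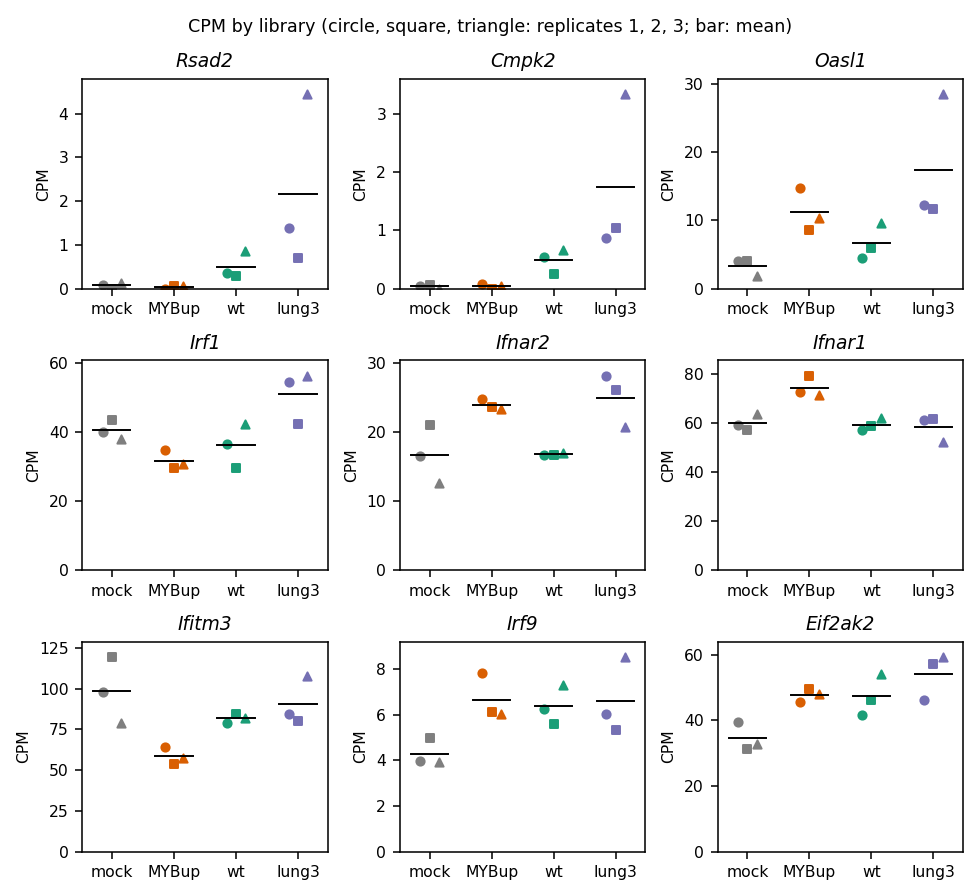
CPM in each library for 9 members (panels; vertical axes start at 0), with the 4 groups along the horizontal axis, 1 symbol per library and a bar at the group mean. Rsad2, Cmpk2 and Oasl1 show lung3 replicate 3 (triangle) far above the other libraries, while in Ifnar2 that library is the lowest of lung3.

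The effects of the 2 variants of 4T1 were compared as a difference, lung3 against wt minus MYBup against mock. It passed in 2 of 33 members, both above 0, where 9.52% of all genes passed above 0, 10.4% below 0 and 19.9% in either direction. In Irf1 the difference was 0.85 ± 0.19 (SE; adjusted p = 0.00724): Irf1 was at 34.8, 29.7 and 30.7 CPM in MYBup and 39.9, 43.6 and 37.9 CPM in mock (log2 fold change -0.35, adjusted p = 0.0686), and higher in lung3 than in wt as given above. In Ifitm3 it was 0.91 ± 0.20 (SE; adjusted p = 0.00676), with 84.3, 80.1 and 108 CPM in lung3 and 79.3, 84.6 and 82.3 CPM in wt, a change of 0.15 ± 0.14 (SE) that did not pass by itself. Both calls held in all the alternatives run. In the other 31 tested members the difference did not pass. Oasl1 and Ifnar2 were called higher in both comparisons, and their differences were -0.32 ± 0.55 (SE) and 0.05 ± 0.22 (SE).

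The plasmid-bearing cells were also set against the cells without plasmid. In the fit of all 12 libraries the share of members called there was below that of all genes. In mock against wt, 2 members were higher (Ifit2 and Tyk2) and 6 lower (Oas1a, Bst2, Lgals3bp, Cmpk2, Irf9 and Eif2ak2), where 18% of all genes were called higher, 17.9% lower and 35.9% in either direction, against 24.2% of members. In MYBup against wt, 3 were higher (Parp9, Ifnar1 and Ifnar2) and 5 lower (Oas1a, Bst2, Cmpk2, Lgals3bp and Ifitm3), where 19.4% were higher, 18.7% lower and 38.2% in either direction, against 24.2% of members. Both comparisons use the same wt libraries.

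Oas1a was at 0.617, 0.428 and 0.327 CPM in mock and 0.489, 0.518 and 0.373 CPM in MYBup, below every wt and lung3 library. Its log2 fold change against wt was -2.10 ± 0.53 (SE; adjusted p = 0.00763) in mock and -2.16 ± 0.55 (SE; adjusted p = 0.00788) in MYBup. Oas1a has close copies, among them Oas1g, and how reads shared by such copies were counted is not given in the sources used here.

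Bst2 (tetherin), which holds budding virus at the cell surface, was at 6.404, 7.34 and 7.78 CPM in mock and 5.87, 6.58 and 7.89 CPM in MYBup, against 14.5, 12.8 and 24.1 CPM in wt. The log2 fold change was -1.26 ± 0.23 (SE; adjusted p = 0.00110) in mock and -1.32 ± 0.24 (SE; adjusted p = 0.000862) in MYBup. Lgals3bp, a secreted galectin-binding glycoprotein, was at 11.3, 9.84 and 7.98 CPM in mock and 15.6, 10.5 and 12.4 CPM in MYBup, against 20.8, 18.5 and 29.2 CPM in wt. Both genes were lower in all 6 plasmid libraries than in all 6 others.

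Cmpk2 had 2 counts in mock against 32 in wt, and the ratio of wt to mock was 12.02 with a 95% counting interval of 3.07 to 104. Rsad2 had 2 counts in MYBup against 33 in wt, a ratio of 10.96 (2.80 to 94.3). Of these 33 counts, wt replicate 3 held 18. In edgeR's test Rsad2 did not pass against wt in MYBup (adjusted p = 0.0503) or in mock (adjusted p = 0.0754). In both genes the libraries with plasmid were at or near the limit of detection. Altogether 5 members, Oas1a, Rsad2, Bst2, Cmpk2 and Lgals3bp, were lower in all 6 plasmid libraries than in all 6 libraries without plasmid, and Tyk2 was higher. The same held for 11% of all genes on each side, and carrying a plasmid cannot be told apart from anything else that set these cells apart.

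Leaving out wt replicate 3, the wt library that was high in these genes, changed these counts. Without it, 8 members were called higher and 3 lower in MYBup against wt, and 3 lower in mock against wt. Of all genes, 32.3% were called in either direction in MYBup against wt in that fit, and 30.7% in mock against wt. By these counts the members called in MYBup against wt were no longer below the share of all genes, which was not tested. Higher counts were 1 in mock against wt without mock replicate 1, wt replicate 1 or wt replicate 2. There 28.5%, 27% and 27.2% of all genes were called in either direction. Lower counts in MYBup against wt were 2 without MYBup replicate 2 and 3 without MYBup replicate 3, where 30.4% and 28.6% of all genes were called. In mock against wt Cmpk2 and Irf9 lost their calls without mock replicate 1 or 3 or wt replicate 1 or 3, and Eif2ak2 without wt replicate 3. In MYBup against wt Cmpk2 lost its call without MYBup replicate 2 or 3 or wt replicate 1 or 3, and Ifitm3 without MYBup replicate 2.

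Genes of the pathway that are not members gave mixed results. Of 14 tested sensors and adaptors that lead to interferon production, 3 were higher and 2 lower in MYBup, and 1 was higher and 0 lower in lung3, with 4 of 14 (28.6%) at an unadjusted p under 0.05 in edgeR's test. Over all genes 14.3% were higher and 12.6% lower in MYBup, 2.91% higher and 2.44% lower in lung3, and 21.3% at an unadjusted p under 0.05 in lung3. Ticam1, the adaptor of TLR3, was at 10.7, 8.65 and 8.37 CPM in MYBup and 3.75, 4.14 and 5.16 CPM in mock (log2 fold change 1.09, adjusted p = 0.000532). Tmem173 (STING), the receptor of cyclic dinucleotides, rose (0.54, adjusted p = 0.0128), as did Irf5 (0.55, 0.0405), while Mavs, the adaptor of RIG-I, fell (-0.26, 0.0446). Ikbke, a kinase that acts on Irf3 and Irf7, was at 47.1, 44.0 and 19.3 CPM in lung3 and 15.3, 13.7 and 13.6 CPM in wt (1.36, adjusted p = 0.0130), and lower in MYBup than mock (-0.90, 0.0483). In Ikbke lung3 replicate 3 was the lowest lung3 library, opposite to the antiviral genes. Irf3, the factor that starts interferon transcription, did not pass in either comparison (-0.34, adjusted p = 0.0729 in MYBup and -0.29, adjusted p = 0.223 in lung3).

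Of 16 genes of signal transduction and its control, 3 were higher and 2 lower in MYBup, and 0 higher and 2 lower in lung3, with 6 of 16 (37.5%) at an unadjusted p under 0.05 there, against 21.3% of all genes. In either direction 31.3% were called in MYBup against 26.9% of all genes, and 12.5% in lung3 against 5.36%. Il10rb, a chain of the type III interferon receptor, was higher in MYBup (log2 fold change 0.73, adjusted p = 0.00117). It shares 569 exon bases on the same strand with Gm21970, the transcript that also overlaps Ifnar2, so the limit given for Ifnar2 holds here too. Irf2, a repressor of interferon targets, and the phosphatase Ptpn6 were lower in MYBup (-0.40, 0.00287 and -0.68, 0.00163). Irf8 was lower in lung3, at 7.20, 8.89 and 7.97 CPM against 16.5, 14.2 and 11.7 CPM in wt (-0.83, adjusted p = 0.00355), as was the phosphatase Ptpn1 (-0.33, adjusted p = 0.0469).

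Of the 52 other interferon-stimulated genes, 5 were higher and 7 lower in MYBup, with a median log2 fold change of -0.00508, and 7 were higher and 0 lower in lung3, with a median of 0.252. In either direction 23.1% were called in MYBup against 26.9% of all genes, and 13.5% in lung3 against 5.36%. At an unadjusted p under 0.05 edgeR's test gave 16 of 52 (30.8%) in lung3, against 21.3% of all genes. Ly6e, a surface protein, was at 32.2, 29.3 and 59.5 CPM in lung3 and 8.91, 8.47 and 16.4 CPM in wt (log2 fold change 1.86, adjusted p = 0.00273), and at 0.163, 0.296 and 0.160 CPM in MYBup and 1.94, 2.71 and 1.31 CPM in mock (-3.24, adjusted p = 0.00613). Its replicate 3 was the highest library in lung3 and in wt. Slfn2, which keeps T cells and monocytes quiescent, was higher in lung3 (1.93, adjusted p = 0.0116) and lower in MYBup (-1.81, 0.0204), and was lowest in replicate 3 of lung3 at 1.73 CPM, against 4.15 and 3.35. The inflammatory caspases Casp1 (-4.61, adjusted p = 0.000108) and Casp4 (-4.17, 0.000553) and Slfn8 (-1.39, 0.000119) were lower in MYBup, and Gbp7, a guanylate-binding protein, was higher (1.38, 0.0162). None of these 4 passed in lung3 against wt.

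Some of these calls were close to the threshold. In MYBup against mock, Irf5, Ikbke and Mavs lost their calls in 12, 10 and 10 of the 20 alternatives, with adjusted p of up to 0.143, 0.158 and 0.149, and Ptpn1 lost its call in lung3 in 10 (up to 0.211). Slfn2 lost its call in MYBup without mock replicate 1 or MYBup replicate 3 and in lung3 without wt replicate 1 or 2 or lung3 replicate 1, Gbp7 in MYBup without MYBup replicate 2 or 3, and Ikbke in lung3 without wt replicate 2 or lung3 replicate 1 or 2. The calls of Ticam1, Il10rb and Ptpn6 in MYBup and of Irf8 and Ly6e in lung3 held in all 20.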

How the data were processed

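RNA was extracted with RNeasy Plus Mini and libraries were made with TruSeq, per the labels' protocols. STAR, edgeR and GRCm38 are named, without versions, per the submitters' processing notes; no source used here gives the counting tool, the annotation or the use of strand. The deposited table holds raw read counts per Ensembl gene, in which all 2708 values of more than 4 digits end in 0, so large counts were rounded. Of 22880 features 22570 had a symbol and 7336 were 0 in all libraries.

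The members and lists were chosen with earlier results of these data known. Genes were kept by filterByExpr and fitted in 1 quasi-likelihood model of all 12 libraries with TMM factors (edgeR 4.0.16, R 4.3.3), and p-values were adjusted by Benjamini-Hochberg over 11291 genes, with a threshold of 0.05. SE is the size of the log2 fold change divided by the root of F. CPM is the count over the TMM-scaled library total, times 1000000, and log2 CPM for spread adds a prior count of 2. DESeq2 1.42.0, limma 3.58.1, other scaling, no filter, fits of the 6 libraries compared, a replicate block and leave-one-out fits were alternatives, and the test was checked on simulated data. A member was described in full if called in lung3 against wt, MYBup against mock or their difference, if among the 8 widest in lung3, or if a receptor chain or kinase; of each other list up to 6 called genes were described, by fold change, with Irf3, and 1 gene of these lists is not reported here.

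Same-numbered lung3 and wt libraries deviated together over all genes (r = 0.329, 0.294 and 0.309; other pairs -0.212 to -0.0930), though the labels state no pairing. Same-numbered MYBup and mock libraries did so in number 3 only (r = -0.191, -0.496 and 0.382). Their pairs of different numbers ran from -0.541 to 0.636.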

Additional observations from a re-analysis of the deposited data

How the results depend on the processing

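No called result of those described changed sign under the alternatives run. For lung3 against wt, members called higher were 5, and 2 with the 6 libraries alone, 9 with the 6 libraries and replicate block, 3 with limma voom and 0 to 6 over single libraries left out; 0 were lower in each of these. The median log2 fold change there was 0.0148 to 0.581 over single libraries left out. For MYBup against mock, members called higher were 1 with the 6 libraries and replicate block, where 30 members were tested, and 2 to 5 over single libraries left out, while lower counts were 2 with the 6 libraries alone and 1 to 2 over single libraries left out. Same-numbered MYBup and mock libraries did not all deviate together, so whether a replicate block suits that comparison is not settled. For mock against wt, higher counts were 1 with the 6 libraries alone and 1 to 3 over single libraries left out, and lower counts 3 to 8. For MYBup against wt, higher counts were 5 with the replicate block on all 12 libraries, 5 with the 6 libraries and replicate block, and 2 to 8 over single libraries left out, and lower counts 2 to 6. Leaving out wt replicate 3 and lung3 replicate 3 together, an alternative chosen after seeing the data, gave 1 member higher in lung3 against wt, 2 lower in MYBup against mock, 4 higher in mock against wt and 11 higher in MYBup against wt. Over single libraries left out, 2.08% to 7.48% of all genes were called in lung3 against wt and 18% to 29.7% in MYBup against mock. The shares were 27% to 36.2% in mock against wt and 28.6% to 42.8% in MYBup against wt. In the fit without both replicates 3, and in others where no share is given, calls over all genes were not counted. Those member counts are therefore not read as results about the members. The causes of these changes in counts were not tested, except that leave-one-out fits hold fewer libraries. The median spread of the members in lung3 was 0.684 with RLE factors, 0.706 with a prior count of 0.5 and 0.369 as an SD. For the called genes in lung3 against wt the adjusted p ranged up to 0.153 for Irf1, 0.199 for Oasl1, 0.275 for Rsad2, 0.300 for Cmpk2 and 0.147 for Ifnar2. In the block fit of lung3 and wt Irf5 and Il10rb also passed, and it changed no other call named beside those in the report. Members of a few counts (Mx1, Oas2, Zbp1, Ifi44, Usp18 and Ifit3) were too low to test, and the report gives their counts in lung3 and wt.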
